A study of Homo sapiens with 36 samples.

Results

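The transcripts of the ID genes (ID1, ID2, ID3 and ID4), of 3 receptors for bone morphogenetic proteins (BMPR1A, BMPR1B and BMPR2) and of 3 inhibitors of the same pathway (SMAD6, SMAD7 and BAMBI) were followed in LNCaP cells treated with CDK4 inhibitors. All 10 genes were found among the 29872 genes of the deposited expression table. They were chosen by their symbols, and the set was selected on a difference already seen in these data, between 2 and 1 µM of atirmociclib at 72 h. Values from the atirmociclib libraries at 72 h are therefore given below as a description without a test. LNCaP is an established, androgen-responsive human prostate cancer cell line, and a single line, so the replicates carry the variation of repeated cultures and not of different tumours. Besides vehicle, there were 2 inhibitors selective for CDK4, AU2-94 and atirmociclib, each used at doses of 1 and 2 µM, and ribociclib, which inhibits CDK4 and CDK6, at 2 µM. Harvests were made after 24 and after 72 h. Each of the 12 groups had 3 biological replicates, which gave 36 libraries. The labels also give the vehicle groups a dose of 2 µM, and fewer cells were plated for the later harvest, so time and seeding density cannot be told apart.

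Bone morphogenetic proteins (BMPs) are secreted ligands that bring type I receptors, such as BMPR1A and BMPR1B, together with the type II receptor BMPR2. The activated type I receptor phosphorylates SMAD1, SMAD5 and SMAD9, which enter the nucleus with SMAD4 and bind regulatory DNA. The ID genes are among the most direct targets of this signal. Their products are helix-loop-helix proteins without a DNA-binding region, which pair with E proteins such as TCF3 and keep them from binding DNA, and they are known for holding cells in a proliferating, less differentiated state. SMAD6, SMAD7 and BAMBI are induced by the pathway and dampen it: the 2 inhibitory SMADs act on the receptors inside the cell, and BAMBI is a pseudoreceptor that lacks a kinase domain.

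The promoters of ID1, ID2, ID3 and BAMBI are shown because 3 of these genes moved together in the libraries and BAMBI is a target of the same pathway that did not. Each line gives the 250 bases before the RefSeq start of the gene, 5′ to 3′ on the strand of the gene, in GRCh38.p14, and capitals mark GTCT or its reverse complement AGAC, the core that SMAD3 and SMAD4 are known to bind, and GGCGCC, a GC-rich element bound by the BMP SMADs.
ID1 (chr20:31605039-31605288, strand +): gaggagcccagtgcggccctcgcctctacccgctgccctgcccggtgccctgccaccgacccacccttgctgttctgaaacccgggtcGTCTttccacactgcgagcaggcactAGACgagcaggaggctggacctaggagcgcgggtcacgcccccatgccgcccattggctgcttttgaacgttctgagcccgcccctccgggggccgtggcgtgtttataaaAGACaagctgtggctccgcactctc
ID2 (chr2:8681806-8682055, strand +): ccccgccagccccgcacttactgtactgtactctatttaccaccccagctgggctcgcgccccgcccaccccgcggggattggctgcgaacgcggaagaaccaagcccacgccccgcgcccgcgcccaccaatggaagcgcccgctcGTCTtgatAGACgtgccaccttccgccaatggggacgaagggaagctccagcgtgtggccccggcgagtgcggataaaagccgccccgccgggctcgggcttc
ID3 (chr1:23559502-23559751, strand -): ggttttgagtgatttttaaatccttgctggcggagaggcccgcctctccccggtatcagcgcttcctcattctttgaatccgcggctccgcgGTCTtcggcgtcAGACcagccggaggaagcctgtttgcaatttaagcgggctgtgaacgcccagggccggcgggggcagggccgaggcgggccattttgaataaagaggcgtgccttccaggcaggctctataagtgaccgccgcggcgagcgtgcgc
BAMBI (chr10:28677271-28677520, strand +): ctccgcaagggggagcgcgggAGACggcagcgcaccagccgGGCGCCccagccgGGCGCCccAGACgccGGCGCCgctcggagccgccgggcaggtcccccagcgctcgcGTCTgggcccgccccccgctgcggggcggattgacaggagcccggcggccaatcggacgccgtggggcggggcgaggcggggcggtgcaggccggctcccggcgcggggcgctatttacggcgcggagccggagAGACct
GTCT or AGAC occurred 3 times in the ID1 window, 2 times in the ID2 window, 2 times in the ID3 window and 4 times in the BAMBI window. These 4 letters were present in 77.48% of 35116 promoter windows of the same length, so their presence in all of these promoters is not particular to them. GGCGCC, which reads the same on both strands and overlaps neither core, occurred 3 times in the BAMBI window, 209, 196 and 181 bases before the start, and in none of the 3 ID windows, against 16.38% of all promoter windows. BMPR2 was the other member of the set with a GGCGCC, 147 bases before its start. A match, or the lack of one, describes letters in this window only, and sites elsewhere were not searched. By GENCODE annotation ID2 starts further upstream, at chr2:8678845, so its window lies within the annotated gene.

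The normalised counts summed to between 20675156 and 22692555 per library, which normalisation makes alike, and the sequencing depth behind them is unknown. Mitochondrial transcripts took 6.34% to 8.66% of the total, and at 72 h their share differed between groups: 6.76% to 7.42% in vehicle, 7.75% to 8.17% with 1 µM and 8.33% to 8.66% with 2 µM of atirmociclib, without overlap. The luminal prostate markers KLK3, KRT8 and KRT18, summed, held 35745 to 37586 in vehicle and 42299 to 48395 in treated libraries at 24 h, and 32694 to 33607 against 55413 to 68770 at 72 h. Of the marker lists for other cell types, each had members under the detection minimum of 10 normalised counts in 3 libraries, and KRT5, PDGFRA, CHGA and INSM1 were at or below 3 normalised counts in every library. Their summed levels moved with some groups. The endothelial list, carried by VWF and EMCN, summed to 188 to 263 in vehicle at 72 h, 672 to 716 with 1 µM and 529 to 596 with 2 µM of atirmociclib and 471 to 625 with 2 µM of AU2-94, and overlapped vehicle with 1 µM of AU2-94 and with ribociclib. The basal list, carried by KRT14, summed to 5.45 to 30.6 in vehicle at 72 h and to 42.5 to 90.3 in the treated groups. The stromal list, carried by COL1A1 and COL3A1, summed to 396 to 525 in vehicle at 24 h and lay below that in 4 of 5 treated groups, down to 215 with ribociclib. The leukocyte list, carried by CD68, summed to 43.5 to 91.2 in vehicle at 72 h and 118 to 141 with 1 µM of atirmociclib, and the neuroendocrine list, carried by SYP, to at least 29.6 in the vehicle libraries at 24 h and 13.4 to 19.0 with 2 µM of atirmociclib. The part of these shares and markers in the results below was not tested. In bulk RNA, fewer cells that express a gene and less of its RNA per cell cannot be told apart.

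In GRCh38, by GENCODE annotation, the expressed ID genes lie apart: ID1 at chr20:31605283-31606515, ID2 at chr2:8678845-8684461 and ID3, on the reverse strand, at chr1:23557926-23559501. ID4 is at chr6:19837370-19842197. The receptor genes BMPR1A (chr10:86756596-86932825), BMPR1B (chr4:94757955-95158448) and BMPR2 (chr2:202376327-202567751) are long genes on the forward strand. SMAD6 is at chr15:66702236-66782849, SMAD7 at chr18:48919853-48950965 on the reverse strand and BAMBI at chr10:28677510-28682932. Normalised counts cover the exons of the whole gene.

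In vehicle-treated cells at 24 h, per kilobase of exon, ID1 (496 ± 52.6, SD, n = 3) and ID3 (491 ± 53.3) had the highest levels of the 10 genes, with overlapping libraries. BMPR2 followed at 314 ± 9.48, then BAMBI at 167 ± 11.3, ID2 at 124 ± 5.62, SMAD6 at 107 ± 2.62, BMPR1B at 84.1 ± 10.2, BMPR1A at 75.7 ± 4.27 and SMAD7 at 60.1 ± 7.80 normalised counts per kilobase. Libraries of BMPR1B and BMPR1A overlapped on this scale, whereas BMPR2, BAMBI, ID2 and SMAD6 each stood clear of the next gene in this order. ID4 was at the limit of detection. It was listed at 1.77 to 2.96 normalised counts in vehicle at 24 h, reached at most 11.0 in any library, a replicate of AU2-94 at 1 µM at 24 h, and was at 0 in all 3 libraries of atirmociclib at 1 µM at 72 h. ID4 did not pass the minimum of 10 normalised counts in 3 libraries, so it was not tested and no fold change is given, and 9 of the 10 genes entered the tests.

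ID1 rose at 24 h in 4 of 5 treatments and was steeply lower than vehicle at 72 h. At 24 h the vehicle libraries held 560, 591 and 685 normalised counts of ID1. AU2-94 gave 908, 833 and 861 at 1 µM and 986, 943 and 807 at 2 µM, ribociclib gave 767, 827 and 788, and atirmociclib gave 607, 643 and 684 at 1 µM and 860, 676 and 813 at 2 µM. Both AU2-94 groups and the ribociclib group lay wholly above vehicle, and both atirmociclib groups overlapped it. The log2 difference from vehicle was 0.51 ± 0.10 (SE) for AU2-94 at 1 µM (limma, Benjamini-Hochberg adjusted p = 0.000676), 0.57 ± 0.10 at 2 µM (adjusted p = 0.000177), 0.38 ± 0.10 for ribociclib (adjusted p = 0.00544) and 0.35 ± 0.10 for 2 µM of atirmociclib (adjusted p = 0.00841), whose call was lost without its replicate 1 (adjusted p = 0.0527). With 1 µM of atirmociclib the difference was 0.08 (95% interval -0.12 to 0.28, adjusted p = 0.587).

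At 72 h every treated library had less ID1 than every vehicle library. Vehicle held 504, 540 and 530 normalised counts. AU2-94 left 56.4, 69.5 and 79.7 at 1 µM and 116, 56.3 and 88.9 at 2 µM, and ribociclib left 226, 393 and 207. ID1 fell by 2.93 ± 0.30 on the log2 scale with 1 µM of AU2-94 (adjusted p = 6.2e-07), fell by 2.64 ± 0.30 with 2 µM (adjusted p = 2.48e-06) and fell by 0.99 ± 0.30 with ribociclib (adjusted p = 0.0164). The ribociclib call depended on single libraries: without replicate 1 the adjusted p was 0.0625, and without replicate 3 it was 0.0792. All tests at 72 h shared 1 estimate of the spread over 18 libraries, those of atirmociclib included.

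ID3 was also lower than vehicle in all treated groups at 72 h. At 24 h vehicle held 720, 663 and 820 normalised counts, AU2-94 between 708 and 831 over its 6 libraries, atirmociclib 521, 590 and 598 at 1 µM and 731, 584 and 612 at 2 µM, and ribociclib 637, 632 and 611. Only 1 µM of atirmociclib passed the test among these 5 comparisons, with a log2 difference of -0.36 ± 0.09 (adjusted p = 0.00648). Every ribociclib library lay below vehicle, a difference of -0.22 (adjusted p = 0.0831). It passed with equal totals (0.0301) and without vehicle replicate 2 (0.0405). With 2 µM of atirmociclib the difference was -0.19 (adjusted p = 0.126), which passed with equal totals (0.0352) and without its replicate 1 (0.0299). At 72 h vehicle held 777, 798 and 811, against 183, 188 and 179 with 1 µM of AU2-94, 269, 182 and 227 with 2 µM, and 406, 623 and 427 with ribociclib. All treated libraries were below vehicle. The log2 difference was -2.11 ± 0.20 for 1 µM of AU2-94 (adjusted p = 2.97e-07), -1.83 ± 0.20 for 2 µM (adjusted p = 1.96e-06) and -0.74 ± 0.20 for ribociclib (adjusted p = 0.00895).

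ID2, the third ID gene expressed in these cells, fell with atirmociclib already at 24 h. Vehicle held 262, 273 and 287 normalised counts at 24 h, and atirmociclib held 164, 177 and 190 at 1 µM and 163, 177 and 172 at 2 µM, with every atirmociclib library below every vehicle library. ID2 fell by 0.63 ± 0.15 (adjusted p = 0.00291) and fell by 0.68 ± 0.15 (adjusted p = 0.00147) on the log2 scale at these doses. With AU2-94 the libraries lay on both sides of vehicle, at 348, 225 and 229 for 1 µM and 253, 289 and 276 for 2 µM, as did those of ribociclib at 230, 291 and 213, and none of these 3 comparisons passed. At 72 h all treated libraries were below the vehicle libraries, which held 232, 278 and 204. AU2-94 left 95.3, 73.0 and 78.0 at 1 µM and 113, 122 and 94.8 at 2 µM, and ribociclib left 107, 193 and 124. The log2 differences were -1.52 ± 0.22 (adjusted p = 4.17e-05), -1.10 ± 0.22 (adjusted p = 0.00106) and -0.78 ± 0.22 (adjusted p = 0.0119), the last of which missed the threshold without ribociclib replicate 1 (adjusted p = 0.0682) or vehicle replicate 2 (adjusted p = 0.0603). ID2 shares 145 exonic bases, 6.55% of its length, with the antisense gene ID2-AS1 (mean 61.2 normalised counts), and without a stated strand setting their reads cannot be told apart.

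**Figure D1:**
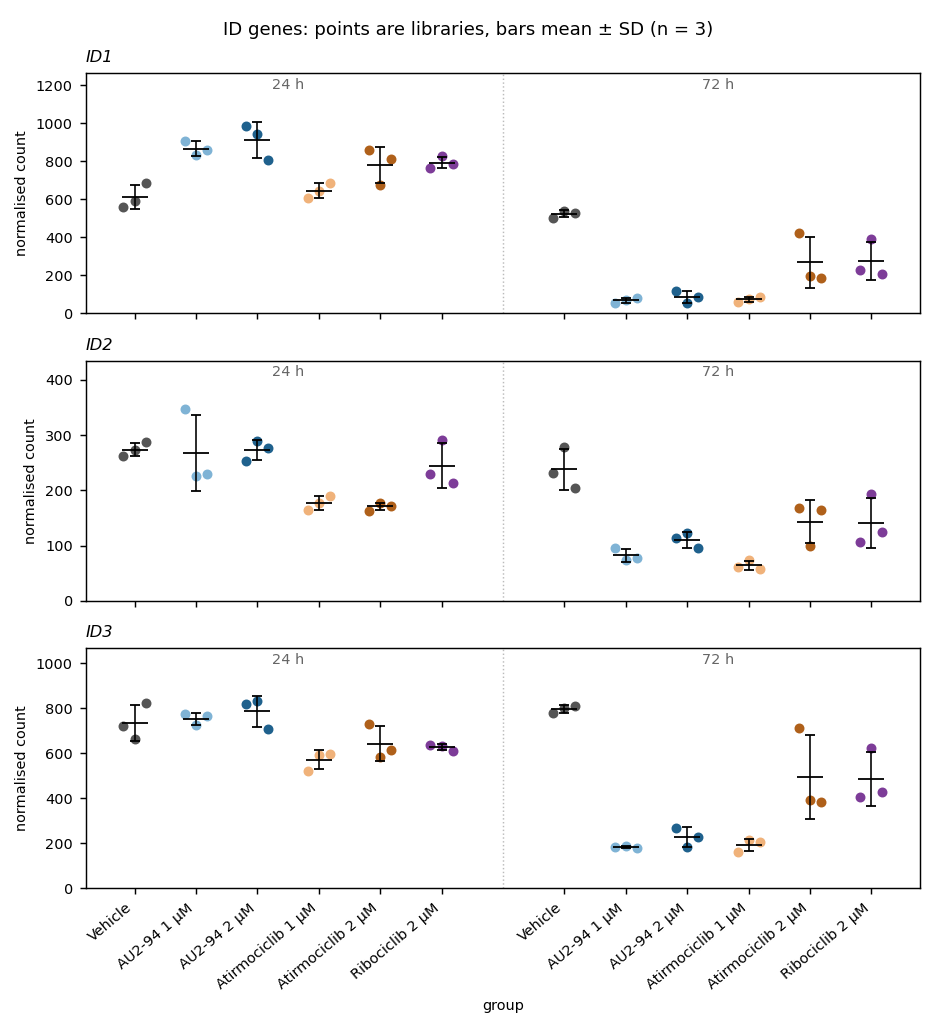
Normalised counts (y axis, linear, from 0) of ID1, ID2 and ID3 in the 12 groups (x axis), with 24 h on the left and 72 h on the right. Points are single libraries and bars give the mean ± SD of 3 libraries. At 72 h the AU2-94 groups and 1 µM of atirmociclib lie lowest, and replicate 1 of 2 µM of atirmociclib and replicate 2 of ribociclib lie above the other libraries of their groups for ID1 and ID3.

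Between 2 and 1 µM of atirmociclib at 72 h, the difference on which the set was selected, ID1, ID2 and ID3 were higher at the higher dose. ID1 was listed at 61.6, 75.8 and 87.3 with 1 µM and at 424, 196 and 186 with 2 µM. ID2 was listed at 61.6, 73.0 and 57.5 with 1 µM and at 168, 98.3 and 164 with 2 µM. ID3 was listed at 163, 212 and 205 with 1 µM and at 709, 391 and 384 with 2 µM. The libraries of the 2 doses did not overlap for any of the 3 genes, and the 2 µM libraries still lay below vehicle. The log2 difference, 2 minus 1 µM, was 1.74 ± 0.30 for ID1, 1.12 ± 0.22 for ID2 and 1.30 ± 0.20 for ID3. Replicate 1 of the 2 µM group carried the most ID1 and ID3, and without it the differences were 1.35 and 1.01. Against vehicle, ID1 stood at -2.81 with 1 µM and -1.07 with 2 µM, ID2 at -1.87 and -0.75, and ID3 at -2.05 and -0.74 on the log2 scale.

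The other members were less affected by the dose of atirmociclib at 72 h. SMAD6 was listed at 545, 515 and 485 with 1 µM and at 690, 650 and 622 with 2 µM, a log2 difference of 0.34 ± 0.07, and BMPR1A at 835, 951 and 839 against 1090, 966 and 961, a difference of 0.20 ± 0.07. BAMBI was the member with lower libraries at 2 µM, 359, 394 and 336 against 449, 399 and 432, a difference of -0.23 ± 0.09. BMPR1B, BMPR2 and SMAD7 overlapped between the doses, with differences of 0.07, -0.03 and -0.15. In all, 5 of 9 members were higher at 2 µM with no overlap, where 13.1% of the 16341 genes tested at 72 h were, and 1 was lower, where 9.45% were. Since the set was selected on this contrast, nothing is read from these shares.

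The other dose comparisons did not compare the libraries that chose the set, although at 72 h those libraries entered the shared estimate of the spread. Between 2 and 1 µM of AU2-94 at 72 h, ID1 differed by 0.30 on the log2 scale (95% interval -0.33 to 0.92), ID2 by 0.42 (-0.05 to 0.89) and ID3 by 0.28 (-0.14 to 0.71), all with an adjusted p of 0.996. Between 2 and 1 µM of atirmociclib at 24 h, ID1 differed by 0.27 (0.07 to 0.48, adjusted p = 0.416), ID2 by -0.05 (-0.36 to 0.26) and ID3 by 0.17 (-0.03 to 0.37). Between the doses of AU2-94 at 24 h the 3 differences were 0.07, 0.06 and 0.06. In limma 0 of 9 members passed the adjusted threshold in each of these 3 comparisons, while 0, 2 and 0 had an unadjusted p under 0.05 for AU2-94 at 24 h, atirmociclib at 24 h and AU2-94 at 72 h. Over all genes 0.409%, 0.0124% and 0.0% passed. The intervals leave room for ID1 differences of up to 0.92 between the AU2-94 doses at 72 h, so equal action of the doses was not shown.

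**Figure D2:**
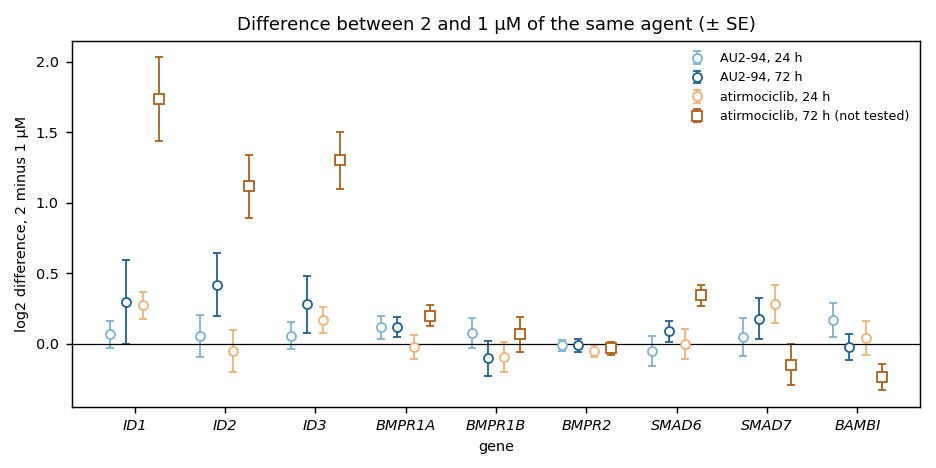
Log2 difference between 2 and 1 µM of the same agent (y axis, 2 minus 1 µM) for the 9 members tested (x axis), with bars of ± 1 SE from the fit over all genes. Squares mark atirmociclib at 72 h, which chose the set and was not tested; there ID1, ID2 and ID3 stand at 1.74, 1.12 and 1.30, and none of the circles passed the test.

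BMPR1B was the member that rose most, with every inhibitor and at both times. The type I receptor BMPR1B held 628, 502 and 524 normalised counts in vehicle at 24 h. It reached 1076, 1450 and 1431 with 1 µM and 1346, 1354 and 1439 with 2 µM of AU2-94, 1578, 1570 and 1545 with 1 µM and 1441, 1403 and 1561 with 2 µM of atirmociclib, and 1559, 1340 and 1751 with ribociclib. All treated libraries were above vehicle, and the log2 differences ran from 1.25 ± 0.11 for 1 µM of AU2-94 (adjusted p = 1.07e-07) to 1.51 ± 0.11 for 1 µM of atirmociclib (adjusted p = 3.94e-09). In vehicle itself BMPR1B was lower at 72 h, at 256, 260 and 241, a log2 difference of -1.12 ± 0.12 from 24 h (adjusted p = 1.83e-07). At 72 h AU2-94 gave 725, 822 and 1029 at 1 µM and 806, 801 and 768 at 2 µM, ribociclib gave 1246, 1044 and 976, and atirmociclib gave 873, 1039 and 741 at 1 µM and 881, 903 and 974 at 2 µM. The rise over the 72 h vehicle was 1.75 ± 0.12 (adjusted p = 6.49e-09), 1.65 ± 0.12 (adjusted p = 1.63e-08) and 2.10 ± 0.12 (adjusted p = 3.74e-10) for AU2-94 at 1 and 2 µM and ribociclib, and stood at 1.79 and 1.86 for the 2 atirmociclib doses, which were not tested.

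BMPR2, the type II receptor that pairs with it, also rose in all 8 tested comparisons, by less. Vehicle held 4038, 3803 and 3947 normalised counts at 24 h, and the 15 treated libraries ranged from 5223 to 6426, with log2 differences between 0.45 ± 0.04 for 2 µM of atirmociclib (adjusted p = 6.22e-08) and 0.66 ± 0.04 for ribociclib (adjusted p = 5.2e-10). At 72 h vehicle held 4077, 4213 and 4094. The AU2-94 libraries lay between 4737 and 4984 and those of ribociclib between 4815 and 5319, differences of 0.25 ± 0.05 (adjusted p = 0.000315), 0.24 ± 0.05 (adjusted p = 0.000549) and 0.32 ± 0.05 (adjusted p = 2.64e-05). The atirmociclib libraries at 72 h ranged from 5189 to 5710.

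BMPR1A, the other type I receptor, changed by 0.38 or less on the log2 scale. Vehicle held 774, 715 and 798 normalised counts at 24 h. The gene rose by 0.29 ± 0.08 with 2 µM of AU2-94, at 979, 905 and 918 (adjusted p = 0.011), and by 0.27 ± 0.08 with ribociclib, at 860, 976 and 926 (adjusted p = 0.0163). The call for AU2-94 was lost without vehicle replicate 2, and that for ribociclib without vehicle replicate 2 or ribociclib replicate 2. The other 3 differences at 24 h were 0.12 to 0.17 and did not pass. At 72 h BMPR1A rose with ribociclib, at 942, 974 and 962 against 816, 781 and 721 in vehicle, by 0.31 ± 0.07 (adjusted p = 0.00276), and differed by -0.12 and 0.00 with 1 and 2 µM of AU2-94, neither of which passed. The atirmociclib libraries at 72 h all lay above vehicle, with differences of 0.18 and 0.38 at 1 and 2 µM, which were not tested.

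**Figure D3:**
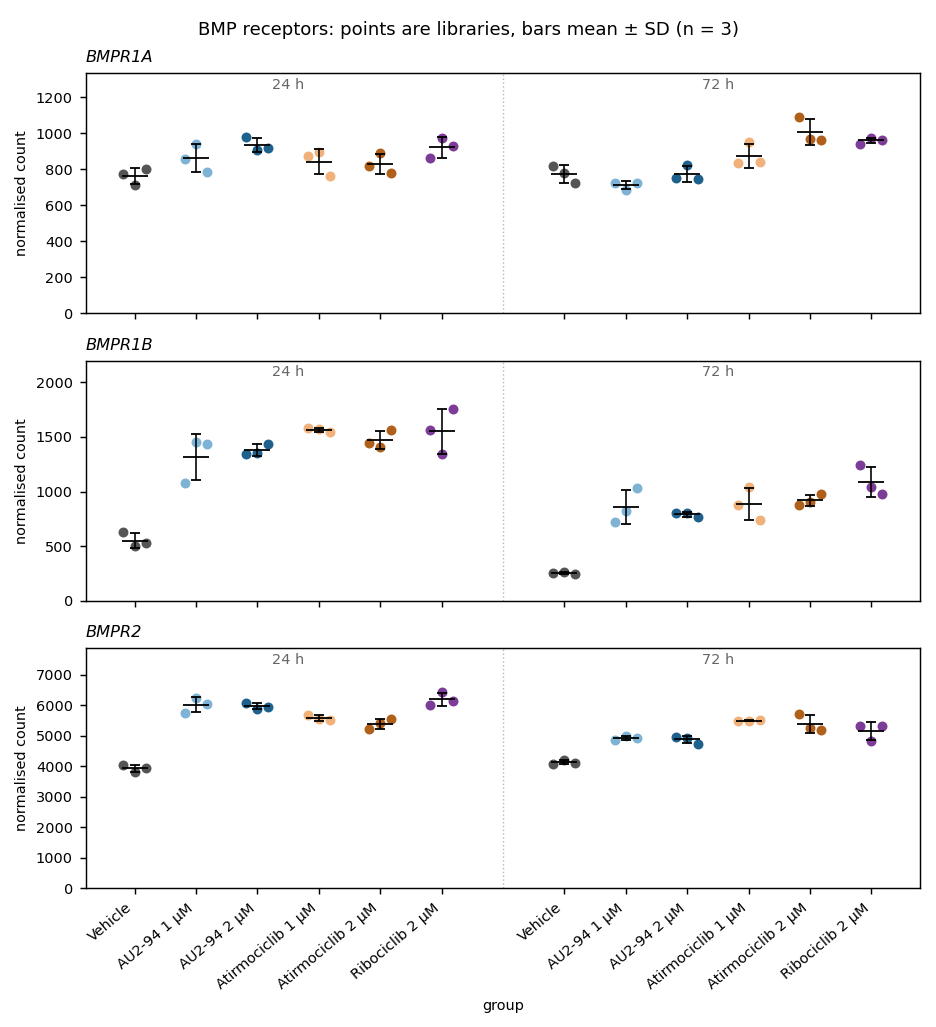
Normalised counts (y axis, linear, from 0) of the receptors BMPR1A, BMPR1B and BMPR2 in the 12 groups (x axis), with 24 h on the left and 72 h on the right; points are libraries and bars the mean ± SD of 3 libraries. For BMPR1B and BMPR2 all treated libraries lie above the vehicle of their time point, and BMPR1B in vehicle falls from 502 to 628 at 24 h to 241 to 260 at 72 h.

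Of the feedback inhibitors, SMAD6 fell, the SMAD7 effect of AU2-94 was lower at 72 than at 24 h, and BAMBI passed against vehicle at 24 h but in none of the 3 comparisons tested at 72 h. SMAD6, which competes with SMAD4 for SMAD1 and blocks the type I receptors, held 913, 933 and 888 normalised counts in vehicle at 24 h. Atirmociclib left 561, 592 and 740 at 1 µM and 625, 594 and 659 at 2 µM, log2 differences of -0.54 ± 0.11 at both doses (adjusted p = 0.000645 and 0.00058), and ribociclib left 770, 822 and 629, a difference of -0.31 ± 0.11 (adjusted p = 0.0323) that did not pass without ribociclib replicate 3 (adjusted p = 0.19) or without any one of the vehicle replicates, nor with no filter on low values (0.0511), quantile normalisation (0.0636) or no trend (0.0522). With AU2-94 at 24 h the differences were -0.05 and -0.10 and did not pass. At 72 h vehicle held 745, 750 and 829 and AU2-94 left 579, 589 and 635 at 1 µM and 666, 636 and 617 at 2 µM, differences of -0.37 ± 0.07 (adjusted p = 0.000912) and -0.27 ± 0.07 (adjusted p = 0.00889). The call at 2 µM missed the threshold without vehicle replicate 3 (adjusted p = 0.0511). Ribociclib at 72 h, with 750, 772 and 688, overlapped vehicle at -0.07. The atirmociclib libraries at 72 h all lay below vehicle, with differences of -0.59 and -0.24 at 1 and 2 µM, which were not tested.

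SMAD7, which brings ubiquitin ligases to the receptors, held 272, 224 and 215 normalised counts in vehicle at 24 h. It rose with 2 µM of atirmociclib, at 277, 365 and 322, by 0.44 ± 0.13 (adjusted p = 0.0158), and with ribociclib, at 341, 322 and 281, by 0.41 ± 0.13 (adjusted p = 0.024), and both calls were lost when single libraries were left out (adjusted p up to 0.0842 without atirmociclib replicate 2 and 0.0994 without vehicle replicate 3). AU2-94 differed by 0.28 at 1 µM (adjusted p = 0.129), where all libraries, from 278 to 301, lay above vehicle. At 2 µM AU2-94 differed by 0.33 (adjusted p = 0.0687), which passed with quantile normalisation (0.0278). This difference also passed without AU2-94 replicate 2 (0.0282) or vehicle replicate 1 (0.0327). With 1 µM of atirmociclib the difference was 0.15 and did not pass (adjusted p = 0.419). At 72 h vehicle held 235, 219 and 213, and 1 µM of AU2-94 left 145, 154 and 189, a difference of -0.46 ± 0.15 (adjusted p = 0.0212) that missed the threshold without AU2-94 replicate 1 or 2 or vehicle replicate 1. With 2 µM the libraries held 176, 191 and 181, all below vehicle, with a difference of -0.28 that did not pass (adjusted p = 0.163). Ribociclib overlapped vehicle at 72 h, with a difference of 0.10 (adjusted p = 0.641). Atirmociclib also overlapped it, with differences of 0.07 and -0.08 at 1 and 2 µM, which were not tested.

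BAMBI held 337, 384 and 351 normalised counts in vehicle at 24 h, and all 15 treated libraries at that time were below these, from 219 to 315. BAMBI fell, with log2 differences of -0.52 ± 0.12 for 1 µM of AU2-94 (adjusted p = 0.00307), -0.35 ± 0.12 for 2 µM (adjusted p = 0.0337), -0.50 ± 0.12 for 1 µM of atirmociclib (adjusted p = 0.00367) and -0.45 ± 0.12 for 2 µM (adjusted p = 0.00653), the last of which missed the threshold with quantile normalisation (adjusted p = 0.054). The call for 2 µM of AU2-94 was lost without replicate 1 or 3 of that group or without vehicle replicate 2 or 3. Ribociclib, at 274, 290 and 298, gave -0.31 (adjusted p = 0.0571). In vehicle BAMBI was higher at 72 h, at 443, 515 and 516, a rise of 0.46 ± 0.11 over 24 h (adjusted p = 0.00513). None of the 3 tested comparisons passed at 72 h, with differences of 0.10, 0.08 and 0.02, and the atirmociclib libraries stood at -0.20 and -0.43.

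**Figure D4:**
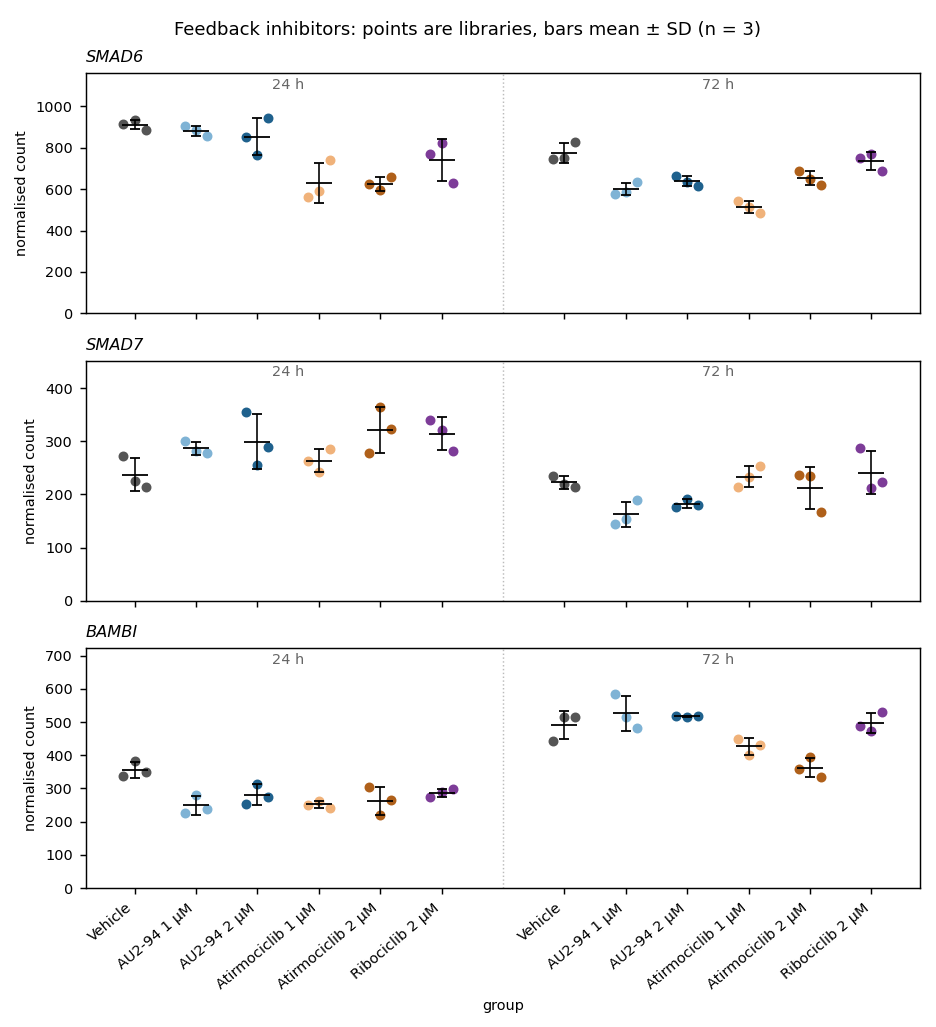
Normalised counts (y axis, linear, from 0) of the inhibitors SMAD6, SMAD7 and BAMBI in the 12 groups (x axis), with 24 h on the left and 72 h on the right; points are libraries and bars the mean ± SD of 3 libraries. The 15 treated BAMBI libraries at 24 h, from 219 to 315, lie below the vehicle libraries, from 337 to 384.

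Counted over the 9 tested members at 24 h, 3 were higher and 1 lower with 1 µM of AU2-94, where 14.3% and 13.5% of the 16137 genes tested were. With 2 µM of AU2-94, 4 were higher and 1 lower (16.0% and 14.9% of genes). With 1 µM of atirmociclib, 2 were higher and 4 lower (16.6% and 15.4%), with 2 µM 4 were higher and 3 lower (18.6% and 16.2%), and with ribociclib 5 were higher and 1 lower (16.8% and 15.2%). At 72 h, 2 were higher and 5 lower with 1 µM of AU2-94 (15.4% and 17.0% of 16341 genes), 2 higher and 4 lower with 2 µM (14.2% and 15.3%), and 3 higher and 3 lower with ribociclib (15.5% and 15.4%). The median log2 difference of the members ran from 0.08 to 0.29 over the 5 comparisons at 24 h and at 72 h was -0.37 with 1 µM and -0.28 with 2 µM of AU2-94 and 0.02 with ribociclib, while the median of all genes lay between -0.008 and 0.005. The members did not move as 1 group: the ID genes fell at 72 h while BMPR1B and BMPR2 rose in the same libraries.

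**Figure D5:**
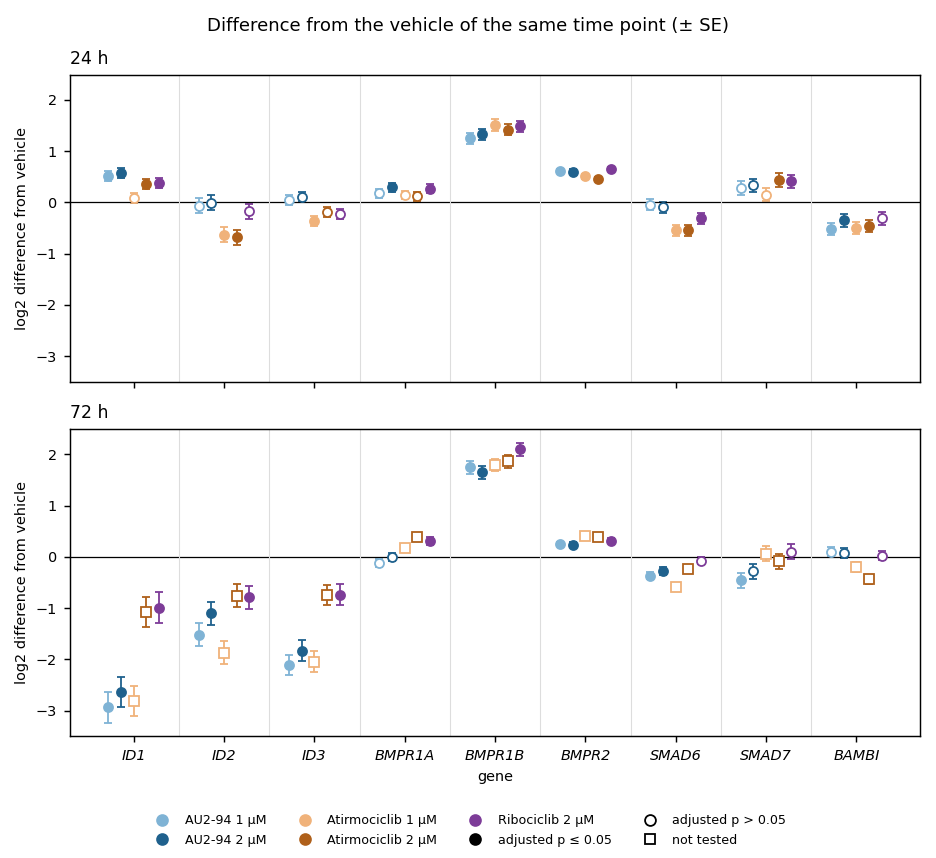
Log2 difference from the vehicle of the same time point (y axis) for the 9 members tested (x axis) under the 5 treatments, at 24 h above and 72 h below, with bars of ± 1 SE from the fit over all genes. Filled circles passed an adjusted p of 0.05, open circles did not, and open squares are the atirmociclib groups at 72 h, which were not tested. ID1 turns from 0.51 and 0.57 at 24 h to -2.93 and -2.64 at 72 h with 1 and 2 µM of AU2-94, and BMPR1B is positive throughout.

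The change of each effect between the times was tested directly, by subtracting the 24 h effect from the 72 h effect. It was negative for ID1 at both AU2-94 doses (-3.44 ± 0.33, adjusted p = 1.27e-08, and -3.21 ± 0.33, adjusted p = 2.09e-08) and with ribociclib (-1.37 ± 0.33, adjusted p = 0.00313). ID3 changed by -2.15 ± 0.24 and -1.93 ± 0.24 and ID2 by -1.46 ± 0.28 and -1.10 ± 0.28 with 1 and 2 µM of AU2-94, all of which passed, whereas the ribociclib changes of -0.52 and -0.61 did not. The rise of BMPR2 was smaller at 72 h, with changes of -0.36, -0.36 and -0.34 for the 3 treatments, and that of BMPR1B was larger by 0.50 with 1 µM of AU2-94 (adjusted p = 0.036) and 0.61 with ribociclib (adjusted p = 0.0107). The call for 1 µM of AU2-94 was lost without AU2-94 replicate 1 or vehicle replicate 1 at 24 h, or without AU2-94 replicate 3 or vehicle replicate 1 or 3 at 72 h. With the replicate block, BMPR1A passed as well for both AU2-94 doses (-0.29, adjusted p = 0.0422 and 0.047, against 0.051 and 0.0567 without it). SMAD7 changed by -0.74 ± 0.20 and -0.61 ± 0.20 and BAMBI by 0.62 ± 0.15 and 0.43 ± 0.15 with 1 and 2 µM of AU2-94. At 2 µM both calls were lost in several fits without 1 library (adjusted p up to 0.0983 for SMAD7 and 0.117 for BAMBI). Of 9 members, 2 had a positive and 5 a negative change with 1 µM of AU2-94 (10.1% and 11.5% of 16850 genes), 1 and 5 with 2 µM (9.26% and 9.28%), and 1 and 2 with ribociclib (10.5% and 9.66%). Vehicle at 72 h against 24 h had 1 member higher, BAMBI, and 1 lower, BMPR1B (3.85% and 3.64% of genes), and ID1, ID2 and ID3 differed by -0.22, -0.21 and 0.12 without passing.

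At a matched dose, the agents were compared in 5 pairs that left out the groups that chose the set. At 24 h and 1 µM, atirmociclib gave less than AU2-94 of ID1 (-0.43 ± 0.10, adjusted p = 0.0135), ID2 (-0.57 ± 0.15, adjusted p = 0.0332), ID3 (-0.41 ± 0.09, adjusted p = 0.017) and SMAD6 (-0.49 ± 0.11, adjusted p = 0.0091) on the log2 scale, 4 lower and 0 higher of 9 members where 3.16% and 1.48% of genes were. The ID2 difference did not pass with the replicate block (adjusted p = 0.0518) and was -0.36 (adjusted p = 0.169) without the AU2-94 library with 348 normalised counts. It also failed without atirmociclib replicate 1, 2 or 3 (adjusted p = 0.123, 0.0823 and 0.0532) and with only the groups of the contrast (0.133). The ID1 and ID3 calls were lost without replicate 1 of either agent, ID3 also without AU2-94 replicate 3, and the SMAD6 call without atirmociclib replicate 1. At 2 µM, atirmociclib was lower in ID2 (-0.67 ± 0.15, adjusted p = 0.00743), SMAD6 (-0.44 ± 0.11, adjusted p = 0.0126) and BMPR2 (-0.15 ± 0.04, adjusted p = 0.0267), 3 lower and 0 higher (4.31% and 5.12% of genes), while ID1 at -0.22 (95% interval -0.43 to -0.02, adjusted p = 0.171) and ID3 at -0.29 (-0.49 to -0.09, adjusted p = 0.0592) did not pass. The SMAD6 call at 2 µM was lost without AU2-94 replicate 3 or atirmociclib replicate 2, and the BMPR2 call without replicate 1 or 3 of AU2-94 or 1 or 2 of atirmociclib, with no filter (adjusted p = 0.0528), with no trend (0.0684) and with only the groups of the contrast (0.105).

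Atirmociclib and ribociclib at 2 µM and 24 h differed in BMPR2 (-0.20 ± 0.04, adjusted p = 0.00603), 1 lower and 0 higher of 9 members where 2.81% and 1.83% of genes were, and had an ID1 difference of -0.03 (-0.23 to 0.18). ID2 differed by -0.50 (adjusted p = 0.0601), which passed with a mean of at least 100 (0.0494) and with equal totals (0.0496). Ribociclib and AU2-94 at 2 µM and 24 h differed in 0 members in limma (0.0186% of genes in each direction), with 1 member, ID3 at -0.32, under an unadjusted p of 0.05. At 72 h ribociclib left more ID1 (1.65 ± 0.30, adjusted p = 0.00506), ID3 (1.09 ± 0.20, adjusted p = 0.00593) and BMPR1A (0.31 ± 0.07, adjusted p = 0.0233) than 2 µM of AU2-94, 3 higher and 0 lower where 1.96% and 1.38% of genes were. Without ribociclib replicate 2, the library with the most ID1, the ID1 difference was 1.36 (adjusted p = 0.0345). The spread at 72 h was shared with the atirmociclib libraries, and with only the groups of the contrast the adjusted p was 0.0471 for ID1, 0.044 for ID3 and 0.101 for BMPR1A. The BMPR1A call was also lost without AU2-94 replicate 1 or 3 or ribociclib replicate 2 or 3. ID2 did not pass between these agents (0.32, -0.15 to 0.79). Atirmociclib at 2 µM stood near ribociclib at 72 h in ID1, ID2 and ID3, with differences of -0.08, 0.03 and -0.01, and above AU2-94 by 1.57, 0.35 and 1.08, values that were not tested.

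Other genes of the pathway moved in part with the members. Of 14 BMP ligands written in a list, 3 were expressed enough to test at 24 h and 4 at 72 h, all at low levels. BMP6 fell in 3 of the 8 tested comparisons (1 with the replicate block), and BMP5, with a mean of 5.14 normalised counts over all libraries, rose in all 3 at 72 h. BMP5 was tested at 72 h only. Treated libraries may be what brought it over the minimum, so nothing is read from its calls. Among 8 other receptors and co-receptors tested, ACVR1, a further type I receptor, fell in all 5 comparisons at 24 h (from -0.49 ± 0.14 to -0.63 ± 0.14) and in 0 of 3 at 72 h in limma (-0.11 to -0.33). In all, this list gave 5 calls higher and 10 lower in 40 tests at 24 h (12.5% and 25.0%) and 2 each way in 24 tests at 72 h (8.33%). Over all genes, the same comparisons called 16.4% higher and 15.0% lower at 24 h and 15.0% and 15.9% at 72 h, and the counts of the lists below are to be read against these shares. A gene enters the share of its list once per comparison, and the comparisons of a time share their vehicle libraries. A few genes can therefore carry the share of a list.

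Of the 4 receptor-regulated and common SMADs, SMAD9 alone passed, in opposite directions at the 2 times. SMAD9, one of the SMADs that BMP receptors phosphorylate, rose in all 5 comparisons at 24 h, by 0.32 ± 0.08 to 0.58 ± 0.08, and fell in all 3 at 72 h, with differences of -0.87 ± 0.12 and -0.66 ± 0.12 for 1 and 2 µM of AU2-94 and -0.39 ± 0.12 for ribociclib (adjusted p = 1.52e-05, 0.000298 and 0.0155). Among 16 intracellular inhibitors, 2 to 5 were higher and 1 to 3 lower in each comparison, with a list median between -0.07 and 0.07. PMEPA1, which sequesters receptor-regulated SMADs and is also induced by androgens, rose in all 8, by 0.23 ± 0.05 to 0.87 ± 0.05. Among other BMP target genes (11 tested at 24 h and 9 at 72 h), 3 to 5 were higher and 0 or 1 lower at 24 h, and 2 or 3 were higher and 1 or 2 lower at 72 h, in all 34.5% higher and 3.64% lower of the tests at 24 h and 29.6% and 18.5% at 72 h. TBX3 rose in all 8 (0.23 to 0.38) and MSX2 fell in the 3 at 72 h (-0.54 to -0.60). DLX3 and ATOH8, with means of 9.32 and 5.76 normalised counts over all libraries, were tested at 24 h only. Treated libraries may be what brought them over the minimum, so nothing is read from their higher calls, which are part of the 34.5%. ACVR1, BMP5, BMP6, SMAD9, PMEPA1, TBX3, MSX2, DLX3 and ATOH8 were named after their values were seen.

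Secreted antagonists and modulators gave 2 or 3 calls higher in every comparison among 7 tested (31.4% of the tests at 24 h and 38.1% at 72 h), carried by the same FSTL1 and TLL1 in each, and 1 lower in each of the 3 at 72 h, TWSG1, a modulator of BMP binding (-0.37 to -0.47). FSTL1, a secreted glycoprotein that binds BMPs, rose from a mean of 106 ± 14.2 normalised counts in vehicle to between 201 and 284 at 24 h, and from 65.8 ± 20.8 to between 156 and 194 at 72 h. Its log2 differences were 0.92 ± 0.15 to 1.41 ± 0.15 at 24 h and 1.27 ± 0.19 to 1.59 ± 0.19 at 72 h, all passing. TLL1, a protease that cleaves the BMP antagonist chordin, rose from 224 ± 66.0 to between 440 and 585 at 24 h and from 163 ± 5.17 to between 268 and 377 in the tested groups at 72 h, with log2 differences of 1.01 to 1.42 and 0.68 to 1.19, all passing. The TGF-beta branch gave 0 to 2 calls in either direction at 24 h among 10 tested (12.0% of the tests higher and 8.0% lower), and 2 to 5 higher and 0 or 1 lower at 72 h among 11 (30.3% and 3.03%).

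Of 21 E proteins and other partners of the ID proteins, 5 were tested at 24 h and 6 at 72 h, with 28.0% of the tests higher and 16.0% lower at 24 h and 44.4% and 11.1% at 72 h. TWIST1, a helix-loop-helix factor whose pairing ID proteins can alter, rose in all 8 comparisons. Its mean was 95.4 ± 3.78 normalised counts in vehicle at 24 h and 174 to 225 in the treated groups, and 49.9 ± 2.08 in vehicle at 72 h and 102 to 150 in the treated groups. The log2 differences were 0.85 ± 0.11 to 1.23 ± 0.11 at 24 h and 1.02 ± 0.15 to 1.57 ± 0.15 at 72 h. TCF3, an E protein that ID proteins bind, had lower values in all 8 comparisons, from -0.33 to -0.19, of which 6 passed. The largest differences in this list were those of MYOD1, the muscle-lineage factor, which had a mean of 48.5 normalised counts over all libraries, under the minimum of 50 for naming. MYOD1 was listed at 0 in all 3 vehicle libraries at 72 h. It was listed at 145, 157 and 206 with 1 µM and at 96.5, 165 and 190 with 2 µM of AU2-94, at 65.7, 41.1 and 75.1 with 1 µM and 38.6, 45.0 and 53.5 with 2 µM of atirmociclib, and at 32.2, 8.07 and 48.1 with ribociclib. It passed in the 3 tested comparisons at 72 h and in 2 of 5 at 24 h, where libraries of 1 group ranged from 0 to 36.2. At both times MYOD1 met the minimum of 10 normalised counts only through treated libraries, since vehicle at 24 h held at most 9.84. ATOH1, a neural factor, passed with both doses of AU2-94 at 72 h from at most 12.4 normalised counts in any library. It reached 10 at 72 h only in AU2-94 libraries, so it entered the test through the groups where it is high. Nothing is read from the MYOD1 calls at either time, which are part of the 28.0% and the 44.4%. Nor is anything read from the ATOH1 calls at 72 h, part of the 44.4%. TCF3, MYOD1, ATOH1 and TWSG1 were named after their values were seen.

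Over the means of the 12 groups, ID1 and ID3 had a Pearson correlation of 0.96, ID1 and ID2 of 0.93, and ID2 and ID3 of 0.95. These 12 points share 2 harvests and 3 agents, so each value describes one separation of groups more than 12 independent ones. They also include both atirmociclib groups at 72 h, which chose the set. Among 12466 genes with a mean of at least 50, the 3 most like ID1 over these means were NSFL1C (r = 0.97), PSMA7 (0.97) and PAK1IP1 (0.97). Those most like ID2 were MBLAC1 (0.95), G3BP2 (0.95) and SLC16A6 (0.95), and those most like ID3 were NFKBIA (0.98), MRPS7 (0.97) and CDK4 (0.96). The genes named are the highest of 12466 values over the same 12 points, so nothing is read from their likeness. For ID4, COMMD8 and MBLAC1 had values of 0.93 each, a likeness that rests on values near the limit of detection. Correlations of BMPR1B with the ID genes were 0.24, 0.01 and 0.03 for ID1, ID2 and ID3, and BAMBI had negative ones of -0.79, -0.59 and -0.63.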

How the data were processed

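Total RNA of 36 LNCaP cultures was sequenced as paired reads. Per the labels and the study's methods, the authors aligned reads to GRCh38 with STAR 2.6.1d and normalised counts with DESeq2; the counter, its annotation and strand setting are not given in the sources used here. The deposited signal is a table of normalised counts per gene, which are not whole (6.52% to 46.28% of low values per library were whole multiples of a step, tolerance 0.01), so no count model was fitted. Genes were named from GENCODE 44 (29856 of 29872).

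Values were tested as log2(value + 1) with limma 3.58.1 in R 4.3.3 (lmFit, eBayes with trend) for genes with at least 10 normalised counts in 3 libraries, in 1 fit for the 18 libraries of each time and 1 for all 36, with Benjamini-Hochberg adjustment over all genes. A gene passed at an adjusted p of at most 0.05, and fold changes on this scale understate those of low genes. Tests were two-sided, and p-values measure the spread between cultures of 1 line. The fit was tested on simulated data. Depth beyond the normalised totals is unknown, so no counting interval is given.

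The members and lists were chosen with earlier results of these data known. Contrasts that use atirmociclib at 72 h were described only. Named were all members, up to 3 genes of each list with a mean of at least 50, an adjusted p of at most 0.05 and a log2 change of at least 1, and the 3 genes most like each ID gene over the group means; a few genes that these rules or the marker lists hold are not reported here. Promoters are from RefSeq (GRCh38.p14); all 10 members matched.

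The labels give the replicate number under the tag batch, so it was taken to pair the libraries across groups, and a fit with it as a block was the alternative. Over 45 pairs per time, deviations of libraries with the same number correlated at a mean of 0.00179 at 24 h (from -0.0898 to 0.112) and -0.00217 at 72 h (from -0.0797 to 0.0502), against -0.000884 and 0.00109 for different numbers. Other alternatives were a pseudocount of 8, no filter, a mean of at least 100, quantile normalisation, equal totals, no trend, only the groups of the contrast, and leaving out each library.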

Additional observations from a re-analysis of the deposited data

Results flagged for a closer look

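For 16 results the effect against vehicle at 72 h differed from that at 24 h, by an interaction term in limma over all genes (adjusted p at most 0.05), given as the later log2 effect less the earlier one. With 1 µM of AU2-94 the difference was -3.438 for ID1, -1.458 for ID2, -2.152 for ID3, 0.498 for BMPR1B, -0.362 for BMPR2, -0.742 for SMAD7 and 0.622 for BAMBI. With 2 µM of AU2-94 it was -3.211 for ID1, -1.095 for ID2, -1.927 for ID3, -0.362 for BMPR2, -0.612 for SMAD7 and 0.428 for BAMBI. With ribociclib it was -1.367 for ID1, 0.61 for BMPR1B and -0.338 for BMPR2. The groups of each comparison held 3 libraries, too few for the rule on single libraries that stand apart. Fewer cells were plated for 72 h, so these differences cannot be told apart from one of density.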

How the results depend on the processing

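Of 180 member comparisons, 76 passed the test, 89 passed in it or in an alternative and 91 passed in no fit. The replicate block, which uses the number under the labels' batch tag, ended the call of the ID2 difference between atirmociclib and AU2-94 at 1 µM and 24 h (adjusted p = 0.0518), brought in the BMPR1A change of effect with 1 and 2 µM of AU2-94 (0.0422 and 0.047), left 1 of 3 calls of lower BMP ligands, and changed no other member call. Calls of members with a positive change were summed over the contrasts between times, vehicle included. There were 5, all from BAMBI and BMPR1B, so a member can count more than once. They were 3 with no filter, with quantile normalisation and with only the groups of the contrast, and 3 to 5 without 1 library (3 without vehicle replicate 1 at 72 h). Calls of members lower between agents, summed over the pairs, were 8, from ID1, ID2, ID3, SMAD6 and BMPR2. They were 4 to 8 without 1 library, 4 without atirmociclib 1 µM replicate 1 and 5 without AU2-94 1 µM replicate 1 at 24 h. The shares over all genes are given above with each comparison. With a mean of at least 100, the list calls went from 3 to 0 (BMP ligands, higher and lower), 7 to 3 (other receptors, higher), 3 to 5 (secreted antagonists, lower), 7 to 4 (other BMP targets, lower) and 15 to 8 (partners of ID proteins, higher); with no filter the BMP ligands gave 1 lower. Fewer genes reach that mean, and the cause of the other changes was not tested. Besides calls named in the report, no filter ended those of BAMBI with 2 µM of AU2-94 at 24 h, the ID2 difference between atirmociclib and AU2-94 at 1 µM, and the changes of effect of BAMBI (2 µM) and BMPR1B (1 µM of AU2-94). Quantile normalisation ended the same 4, no trend ended ID2 and BMPR1B of these, only the groups of the contrast ended ID2, BMPR1B and the BAMBI change, and equal totals ended ribociclib calls at 24 h (BMPR1A and SMAD7), BMPR1A between ribociclib and AU2-94 at 72 h, and the SMAD7 change with 2 µM of AU2-94. Equal totals moved the median of all genes by -0.104 to 0.073.

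Directions turned only for values that did not pass. Quantile normalisation gave 0.0 for SMAD6 with 1 µM of AU2-94, 0.065 for ID2 with 2 µM of AU2-94 and 0.002 for SMAD6 between atirmociclib doses at 24 h, and equal totals gave -0.034 for BMPR1A in vehicle between times. Without 1 library, log2 differences from vehicle at 24 h ran from -0.267 to 0.045 (ID2) and -0.029 to 0.124 (ID3) with 1 µM and -0.047 to 0.046 (ID2) with 2 µM of AU2-94. Between AU2-94 doses at 24 h they ran from -0.051 to 0.261 (ID2), -0.063 to 0.152 (BMPR1B), -0.042 to 0.016 (BMPR2), -0.129 to 0.022 (SMAD6) and -0.08 to 0.158 (SMAD7), and at 72 h from -0.217 to 0.035 (BMPR1B), -0.023 to 0.01 (BMPR2) and -0.085 to 0.054 (BAMBI). Between atirmociclib doses at 24 h they ran from -0.103 to 0.005 (ID2), -0.093 to 0.022 (BMPR1A), -0.081 to 0.119 (SMAD6) and -0.067 to 0.166 (BAMBI). Between atirmociclib and AU2-94 at 24 h they ran from -0.097 to 0.038 (BMPR1A) and -0.04 to 0.115 (BAMBI) at 1 µM, and -0.003 to 0.235 (SMAD7) and -0.215 to 0.018 (BAMBI) at 2 µM. Between atirmociclib and ribociclib they ran from -0.098 to 0.075 (ID1), -0.068 to 0.094 (ID3), -0.172 to 0.021 (BMPR1B) and -0.068 to 0.129 (SMAD7), and between ribociclib and AU2-94 at 24 h from -0.064 to 0.027 (BMPR1A), -0.03 to 0.208 (SMAD7) and -0.032 to 0.126 (BAMBI). At 72 h against vehicle they ran from -0.048 to 0.041 (BMPR1A, 2 µM of AU2-94), -0.031 to 0.188 (SMAD7, ribociclib) and -0.052 to 0.057 (BAMBI, ribociclib). In vehicle between times they ran from -0.027 to 0.067 (BMPR1A) and -0.152 to 0.019 (SMAD7), and for the ribociclib change of effect from -0.007 to 0.088 (BMPR1A).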
